A study of Mus musculus with 4 samples.

Results

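The genes described here are 9 genes of the interleukin 17 (IL-17) programme of T cells: Il23r, Il1r1, Il17re, Ccr6, Tmem176a, Tmem176b, Blk, Serpinb1a and Sdc1. They were chosen by name from the 32285 genes of the deposited count matrices, and all 9 were found. The matrices come from single-cell RNA-seq of iNKT (invariant natural killer T) cells of the thymus, which carry a T cell receptor for lipids presented by CD1d. Thymocytes of mice 6 to 8 weeks old were sorted for CD3 and binding of a CD1d tetramer, and the sorted cells made into 2 wild-type (WT) and 2 ACC1 knockout (ACC1 KO) libraries, numbered 1 and 2 within a genotype. Acaca encodes ACC1, the enzyme of the rate-limiting step of fatty acid synthesis. The sources used here give neither a Cre driver nor the part of Acaca that was removed. They also do not say if the libraries are separate animals. Within a genotype the 2 libraries were of opposite sex by Ddx3y and Xist (values below), so they are not the same animal. The p-values measure the spread between libraries, which includes sex and may be partly technical.

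Thymic iNKT cells are grouped by the cytokines they make. iNKT1 cells depend on T-bet, iNKT2 cells make interleukin 4, and iNKT17 cells run the same programme as Th17 cells and IL-17-producing gamma delta T cells. The surface receptors of that programme sense IL-23 and IL-1, which drive IL-17 release, and the chemokine CCL20, which draws the cells to epithelial tissues.

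The libraries held 29.1 to 74.2 M unique molecular identifiers (UMIs, counted transcripts) in 5499 to 9927 barcodes. After filters and removal of other thymic cell types, 4612, 9014, 5600 and 7794 iNKT cells remained. These values, and every list of 4 that follows, give the WT libraries 1 and 2 first and then ACC1 KO 1 and 2. Both libraries numbered 1 held the Y-linked Ddx3y (77.1 and 82.5 CPM, the gene's UMIs scaled to a common library total) and almost no Xist, both numbered 2 the reverse, and their iNKT cells had medians of 4471 and 4650 against 6209 and 7327 UMIs. Sex and depth therefore go with the number, and the genotype differences of the members are also given within each number. Acaca stood at 34.4, 31.8, 46.9 and 60.4 CPM in iNKT cells. It was higher in both ACC1 KO libraries. Whether the counted transcript ends lie in the deleted part is not known, so these values do not check the knockout. Pairs of libraries shared 10 to 27 barcodes, none of them among the iNKT17-like cells described next.

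All 28247 cells kept after filters and doublet removal were clustered without the 9 genes, so that the clusters do not rest on them. The iNKT cells are those in clusters not named as another thymic cell type. A single cluster of 213 cells, 0.788% of all iNKT cells, passed the limit for the iNKT17 marker set and is called the iNKT17-like class. In each library 9 or 10 of its 11 markers stood above 5 CPM, whereas Il17a held 1 to 11 UMIs and Il17f at most 4. With the libraries summed, 9 of the 11 did so in the class and 8 in a cluster of 545 cells named cycling iNKT2-like. The count of markers thus hardly separates these 2 clusters. The score used for naming was 2.69 in the class and 0.474 in that cluster, with a limit of 2. The alpha beta receptor gene Trac stood at 539 to 642 CPM, and Trdc of the gamma delta receptor was at 0 in all 4 libraries. Of 9 B cell markers 2 to 4 had a UMI in the class per library, and Ms4a1 and Pax5 were at 0 in all 4. The sums of the 9 were 43.2, 40.8, 111 and 62.7 CPM. Of 11 myeloid markers 1 to 3 had a UMI, and Lyz2, H2-Aa, H2-Ab1 and C1qa were at 0 in all 4. The sums of the 11 were 167 to 228 CPM in WT and 166 to 202 CPM in ACC1 KO. Of the 10 genes with the largest folds in this cluster, 6 were members (Il23r, Tmem176a, Blk, Il1r1, Tmem176b and Serpinb1a), and only 1, Pxdc1, was in the marker set.

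Promoter windows of 250 bases before to 50 bases after the start site were available for 7 of the 9 genes (RefSeq, GRCm38.p6), and not for Blk and Serpinb1a. Those of Il23r and Ccr6 are shown because they hold AGGTCA, a motif that many nuclear receptors bind, and that of Tmem176a because it overlaps the window of Tmem176b. The motif, searched on both strands, was present in 2 of the 12 windows of the 7 genes (1 each of Il23r and Ccr6) and in 16.3% of all 32851 windows, so its share in the members is near the background. A match describes the letters and is not a binding site. In the Il23r window (chr6:67491806-67492105, minus strand) capitals mark the 2 motifs, which begin 229 and 66 bases before the start site, and in the Ccr6 window (chr17:8235793-8236092, plus strand) they mark the motif, read on the other strand, and the 4 bases after it. In the Tmem176a window (chr6:48841233-48841532, plus strand) they mark the 155 bases that are also in the window of Tmem176b, which runs the other way (chr6:48841088-48841387, minus strand).
Il23r: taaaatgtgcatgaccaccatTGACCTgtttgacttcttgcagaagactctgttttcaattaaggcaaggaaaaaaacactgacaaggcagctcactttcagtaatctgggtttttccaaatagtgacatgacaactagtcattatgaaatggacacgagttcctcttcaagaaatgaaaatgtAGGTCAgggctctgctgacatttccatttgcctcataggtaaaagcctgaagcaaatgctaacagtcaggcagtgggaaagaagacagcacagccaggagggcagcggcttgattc
Ccr6: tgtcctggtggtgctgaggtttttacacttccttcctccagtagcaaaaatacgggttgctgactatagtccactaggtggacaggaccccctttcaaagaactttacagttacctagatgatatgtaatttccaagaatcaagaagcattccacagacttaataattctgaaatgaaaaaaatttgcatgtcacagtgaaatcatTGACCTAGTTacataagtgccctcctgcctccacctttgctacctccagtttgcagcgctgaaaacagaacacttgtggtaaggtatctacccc
Tmem176a: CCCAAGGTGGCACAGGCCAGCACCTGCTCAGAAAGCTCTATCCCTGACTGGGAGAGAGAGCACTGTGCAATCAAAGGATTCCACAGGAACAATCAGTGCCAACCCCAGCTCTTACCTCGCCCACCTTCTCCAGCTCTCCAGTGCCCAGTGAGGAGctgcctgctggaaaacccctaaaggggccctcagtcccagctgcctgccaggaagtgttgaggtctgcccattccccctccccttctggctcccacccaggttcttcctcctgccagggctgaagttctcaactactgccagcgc

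Among the iNKT classes all 9 genes had their highest level in the iNKT17-like class, in every library. The lowest of the 4 libraries in this class was 4.77 (Sdc1) to 30.04 (Il23r) times the highest value in any library of any other iNKT class. That 0.788% of cells held 95.9% of all iNKT UMIs of Ccr6, 92.1% of Il23r, 90.2% of Il1r1, 81.2% of Blk, 79.1% of Sdc1, 74.9% of Serpinb1a and 72.5% of Il17re. Only 46.0% of Tmem176a and 35.2% of Tmem176b UMIs lay in the class. These shares describe a cluster against other cells and carry no test.

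**Figure D1:**
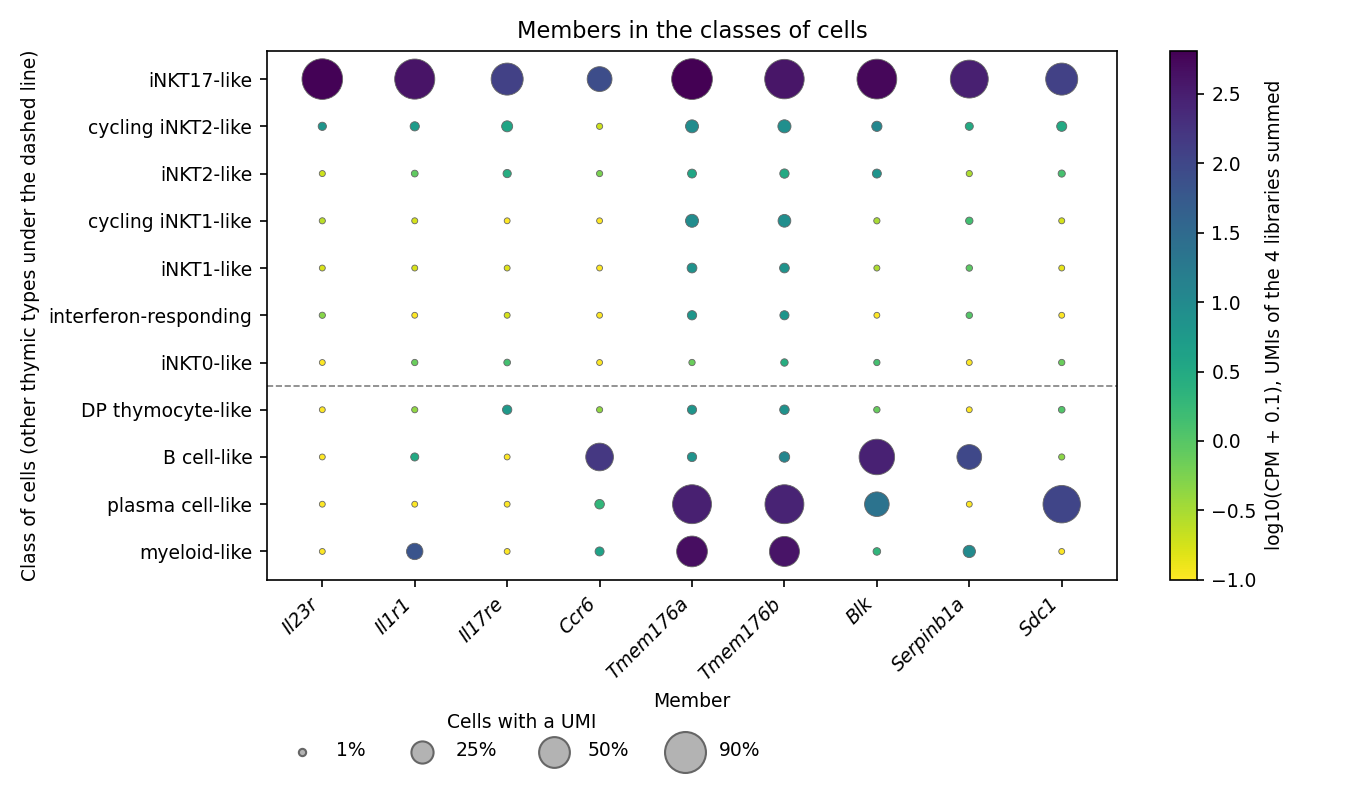
Level of each of the 9 genes by class of cells, with the UMIs of the 4 libraries summed. Colour is log10 of CPM plus 0.1, and the area of a dot grows with the percent of cells with a UMI. The top row, iNKT17-like, is high for all 9 genes, Tmem176a and Tmem176b are the pair with visible dots in most other iNKT classes, and Il23r stays at 0 in the B cell-like, plasma cell-like and myeloid-like cells under the dashed line.

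**Figure D2:**
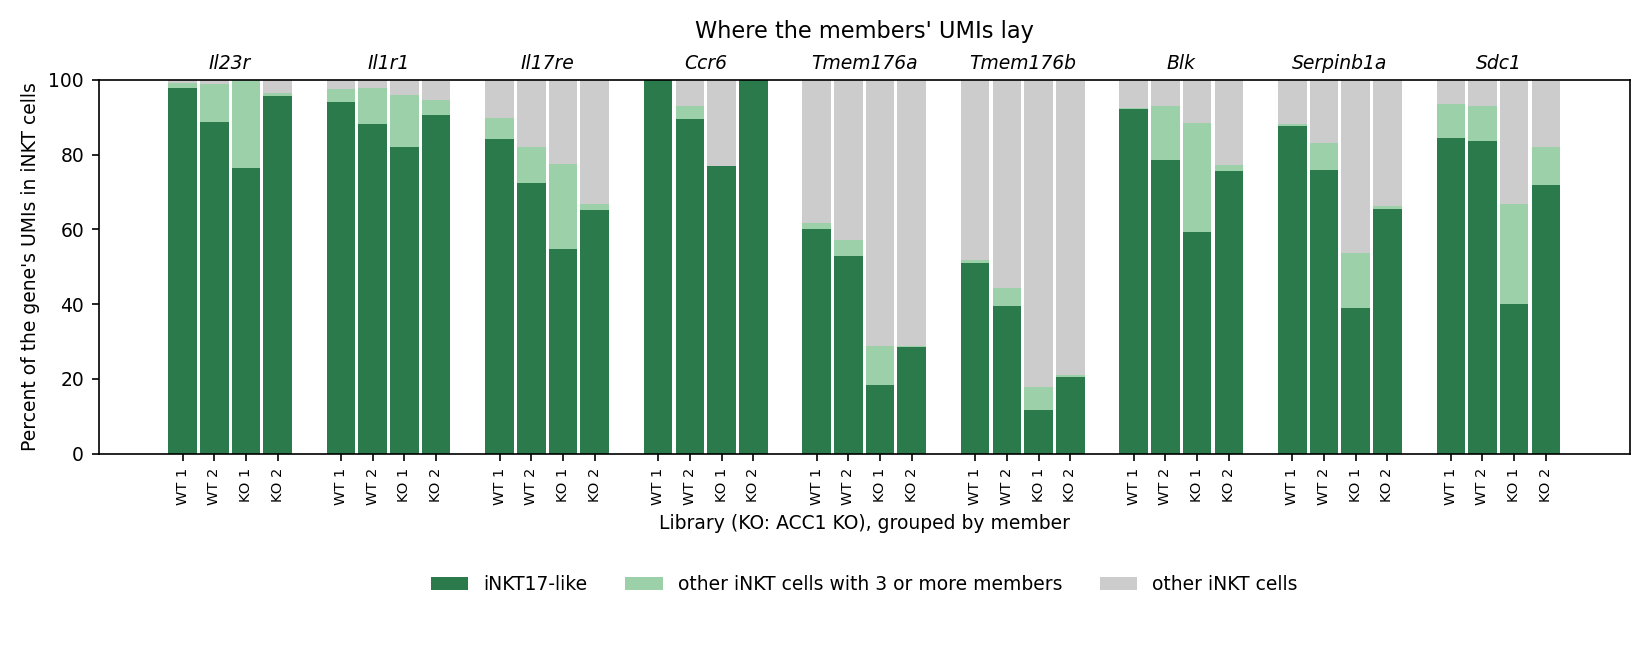
Percent of each gene's iNKT UMIs that lay in the iNKT17-like class (dark green), in other iNKT cells with UMIs of 3 or more of the 9 genes (light green) and in the remaining iNKT cells (grey), per library. For Tmem176a the dark part is 60.2 and 52.9% in the WT libraries and 18.4 and 28.5% in the ACC1 KO libraries.

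Within the class the genes were found together in single cells. Its cells held UMIs of a median of 7 of the 9 genes, and 205 of 213 cells held at least 3. The median was 7, 7, 4.5 and 7 in the 4 libraries, so ACC1 KO 1, with 20 cells and the fewest UMIs per cell, stood below the others. Cells of the class with 0 to 4 members had a median of 5934 UMIs, and those with 8 or 9 had 7730. Outside the class 93.4% of 26807 iNKT cells held none of the 9 genes, and 22 cells held at least 3.

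**Figure D3:**
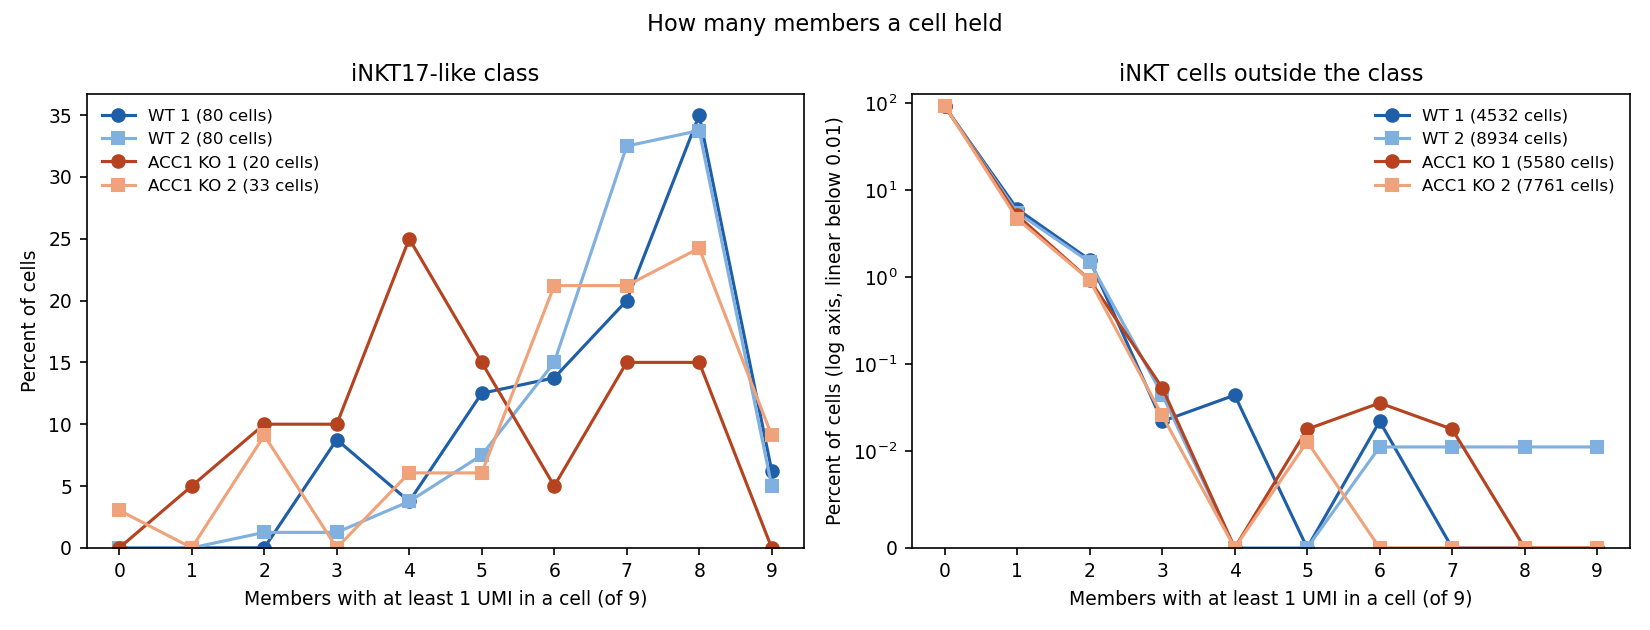
Percent of cells by the number of the 9 genes with a UMI, per library, in the iNKT17-like class (left, linear axis) and in iNKT cells outside it (right, log axis that turns linear below 0.01). The WT libraries and ACC1 KO 2 peak at 8 genes, ACC1 KO 1 peaks at 4, and outside the class the share drops from above 90% at 0 genes to under 0.1% at 3.

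Il23r encodes the subunit that makes the IL-23 receptor specific for IL-23. In the class it stood at 687, 651, 435 and 453 CPM, and a UMI was found in 88.7% of cells. Outside the class 88 UMIs were found in 25 of 26807 cells, and 74 of them lay in the 22 cells with 3 or more members. In iNKT1-like cells, 21317 in all, 9 UMIs of Il23r were found, a mean of 0.0810 ± 0.0317 CPM (SD, n = 4 libraries).

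Il1r1 is the signalling receptor for IL-1. Its levels in the class were 454, 441, 324 and 333 CPM, and 86.4% of cells held a UMI. Of the 31 cells outside the class with a UMI, 15 were cycling iNKT2-like, a cluster of 545 cells with a median of 18414 UMIs. Among the iNKT classes that cluster came second for Il23r and Il1r1 as well as for Il17re, Blk, Serpinb1a and Sdc1, and its range over libraries overlapped that of the third class for all 6.

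Il17re, the receptor subunit that pairs with IL-17RA to bind IL-17C, was less confined. It stood at 139, 99.2, 134 and 117 CPM in the class, with a UMI in 54.5% of cells. Outside it, 44 of 52 cells with a UMI were cycling iNKT2-like or iNKT2-like, at 4.15 ± 1.24 and 3.18 ± 1.71 CPM (SD, n = 4 libraries). The iNKT1-like cells stood at 0.0694 ± 0.0512 CPM, and the highest of their libraries lay below the lowest of either iNKT2-like class.

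Ccr6, the receptor for CCL20, was the sparsest. Its 139, 37.9, 79.1 and 88.4 CPM in the class rested on 74, 26, 10 and 31 UMIs, and 31.9% of cells held one. Outside the class 6 UMIs were found in 3 cells. In iNKT1-like cells Ccr6 was found in 0 of 21317 cells, which allows, at 3 counts, a share of up to 0.0141% of cells with a UMI, for counting error only, as for all intervals here.

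Tmem176a and Tmem176b encode related four-pass membrane proteins of intracellular membranes that Th17-type cells express. In the class Tmem176a stood at 700, 802, 474 and 325 CPM and Tmem176b at 445, 492, 245 and 188 CPM. They were the closest pair: across cells of the class their within-library correlation averaged 0.584 and ran from 0.543 to 0.638 over the 4 libraries, next to 0.393 for Il23r with Il1r1 and -0.0350 for Tmem176b with Sdc1. The points are cells that share a library and depth, so the values are descriptions. The 2 gene bodies lie head to head and overlap (Tmem176b chr6:48833818-48841496, minus strand, and Tmem176a chr6:48840919-48847071, plus strand, mm10), and the sources used here do not say whether counting used strand.

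Outside the class the pair differed from the other 7 genes. Tmem176a had a UMI in 935 and Tmem176b in 922 of 26807 cells, and 76.4 and 75.9% of those cells were iNKT1-like. Thinned to 2000 UMIs per cell, 1.38% of iNKT1-like cells held Tmem176a and 1.29% Tmem176b (3.35 and 3.28% unthinned, median 5627 UMIs). The thinned shares were 1.18 and 2.36% in B cell-like cells (2.83 and 4.15% unthinned, median 4098 UMIs) and 0.815 and 1.63% in CD4 and CD8 double-positive (DP) thymocyte-like cells (2.73 and 3.07% unthinned, median 2493 UMIs). Among the other iNKT classes they ran from 0 and 0.346% in iNKT0-like and 0.513 and 0.924% in iNKT2-like cells to 2.32 and 1.84% in cycling iNKT1-like cells. The iNKT1-like share of Tmem176a thus lay above the shares in B cell-like and DP thymocyte-like cells, and that of Tmem176b below both. This order was not tested. The thinned shares came from 508 B cell-like and 368 DP thymocyte-like cells, and thinning left out 219 DP thymocyte-like cells.

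The 2 genes nevertheless fell in part in the same stray cells: 311 held both, and 1235 held only 1 of the 2. Of the cells outside the class with Tmem176a, 33.3% also held Tmem176b, against 2.36% of cells without Tmem176a. In B cell-like cells the same shares were 33.3% of 15 cells and 3.30%. The 311 cells with both had a median of 6681 UMIs, against 5796 in cells with neither. Their myeloid markers summed to 154 CPM, against 113 CPM in cells with neither and 22865 CPM in myeloid-like cells, and Cst3 made up 107 and 88.9 CPM of the first 2 sums. Of the myeloid markers, Fcgr3 (2.35 against 2.76 CPM) and Itgax (0 against 0.181 CPM) stood lower in cells with both than in cells with neither. Among the others, H2-Aa stood at 4.70 CPM in cells with both against 0.560 CPM in cells with neither. Lyz2 stood at 1.57 against 0.205 CPM, C1qa at 1.57 against 0.0301 CPM and Siglech at 3.52 against 0.00602 CPM, on 4 to 9 UMIs each in cells with both. The cells with both held 150 of the 184 UMIs of Il17a found outside the class. Those 184 fell as 0, 156, 0 and 28 on the libraries, so most came from WT 2. Of the 311 cells 233 were iNKT1-like, yet all iNKT1-like cells held only 0, 2, 0 and 0 UMIs of Il17a. The iNKT2-like cells held 0, 0, 0 and 10. The Il17a UMIs thus do not describe most of the 311 cells, and the number of cells that held them is not given here. Tmem176a UMIs were 1.63 times Tmem176b UMIs in the class and 1.04 times outside it. The part of other cells' free RNA, or of myeloid cells, in these values was not tested.

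Blk, a Src family kinase of B cells that gamma delta T cells making IL-17 also use in mice, stood at 629, 651, 324 and 379 CPM in the class, with a UMI in 85.0% of cells. Outside it, 221 UMIs were found in 67 cells, 46 of them iNKT2-like or cycling iNKT2-like. The thinned share was 1.03% in iNKT2-like and 1.47% in cycling iNKT2-like cells, against 0.0471% in iNKT1-like cells.

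Serpinb1a, an inhibitor of neutrophil serine proteases, stood at 295, 360, 126 and 237 CPM in the class, with a UMI in 77.0% of cells. It was found in 118 cells outside, 84 of them iNKT1-like, where it stood at 0.787 ± 0.146 CPM (SD, n = 4 libraries). Sdc1 encodes the heparan sulfate proteoglycan CD138, the usual marker of plasma cells and also of iNKT17 cells in mice. It stood at 122, 141, 47.4 and 103 CPM in the class, with a UMI in 54.5% of cells, and 29 of its 36 stray cells were iNKT2-like or cycling iNKT2-like.

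Outside the class, cells with several members were few and mostly cycling. Of the 22 cells with 3 or more, 15 were cycling iNKT2-like with a median of 24267 UMIs, 5 were iNKT1-like and 2 were iNKT2-like. They numbered 4, 8, 7 and 3 in the 4 libraries, and 10 of them held 5 or more members. Whether any of them are doublets that passed the filter was not tested.

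Over all iNKT cells, 8 of the 9 genes stood lower in both ACC1 KO libraries than in both WT libraries, with Ccr6 the exception. The share of all 14713 genes tested that did so was 19.4%. The 8 genes also had an unadjusted p under 0.05 toward lower values, as did 1.79% of genes tested. No member passed the edgeR quasi-likelihood test after Benjamini-Hochberg adjustment (0 of 9, with 1 gene called higher, 0.0068%, and 0 lower among all tested). This depended on the model: with the replicate number as a block, edgeR called 8 of 9 members and 1191 of 14713 genes. The labels give same-numbered libraries no shared animal or day, but sex and depth go with the number. DESeq2 called 4 members (Il23r, Il1r1, Blk and Serpinb1a). Without WT 2 edgeR called the same 4 members, and without any of the other libraries none. The median log2 fold change (ACC1 KO over WT) of the members was -1.82, against -0.01 over all genes tested, and stood at -2.43 within number 1 and -1.41 within number 2. In bulk sums like these, fewer cells of a type and less RNA per cell cannot be told apart.

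The receptors gave these values over all iNKT cells. Il23r stood at 15.9 and 7.97 CPM in the WT libraries and at 2.54 and 2.55 CPM in the ACC1 KO libraries, which is -2.15 ± 0.34 (SE) as log2 fold change, with an edgeR adjusted p of 0.370. Il1r1 stood at 10.9, 5.43, 1.76 and 1.98 CPM (-2.04 ± 0.36, edgeR adjusted p = 0.451). WT 1 was the highest library for both, and the groups did not overlap. Il17re stood at 3.74, 1.49, 1.09 and 0.969 CPM (-1.25 ± 0.47, edgeR adjusted p = 1). Ccr6 stood at 3.15, 0.461, 0.459 and 0.477 CPM. Only WT 1 was high for Ccr6: without it the log2 fold change went from -1.79 to 0.04.

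The other 5 genes had the same order of libraries or nearly so. Tmem176a stood at 26.4, 16.5, 11.5 and 6.15 CPM (-1.23 ± 0.35, edgeR adjusted p = 0.792), and Tmem176b at 19.8, 13.6, 9.28 and 4.98 CPM. Blk stood at 15.4, 9.02, 2.43 and 2.71 CPM (-2.17 ± 0.29, edgeR adjusted p = 0.284). None of these groups overlapped, and WT 1 was the highest library for each. Serpinb1a stood at 7.61, 5.16, 1.45 and 1.95 CPM (-1.82 ± 0.29, edgeR adjusted p = 0.370), and Sdc1 at 3.27, 1.84, 0.529 and 0.769 CPM (-1.86 ± 0.41, edgeR adjusted p = 0.600). Both were again highest in WT 1, without overlap between the genotypes.

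Within number 1 the log2 fold changes over all iNKT cells were -2.53 for Il23r, -2.50 for Il1r1, -1.64 for Il17re and -2.57 for Ccr6, and within number 2 they were -1.62, -1.43, -0.60 and 0.05. For Tmem176a, Tmem176b, Blk, Serpinb1a and Sdc1 they were -1.09, -0.99, -2.54, -2.26 and -2.43 within number 1 and -1.41, -1.44, -1.72, -1.38 and -1.21 within number 2. The Tmem176 pair thus had the larger difference in number 2, and the other 7 genes in number 1.

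**Figure D4:**
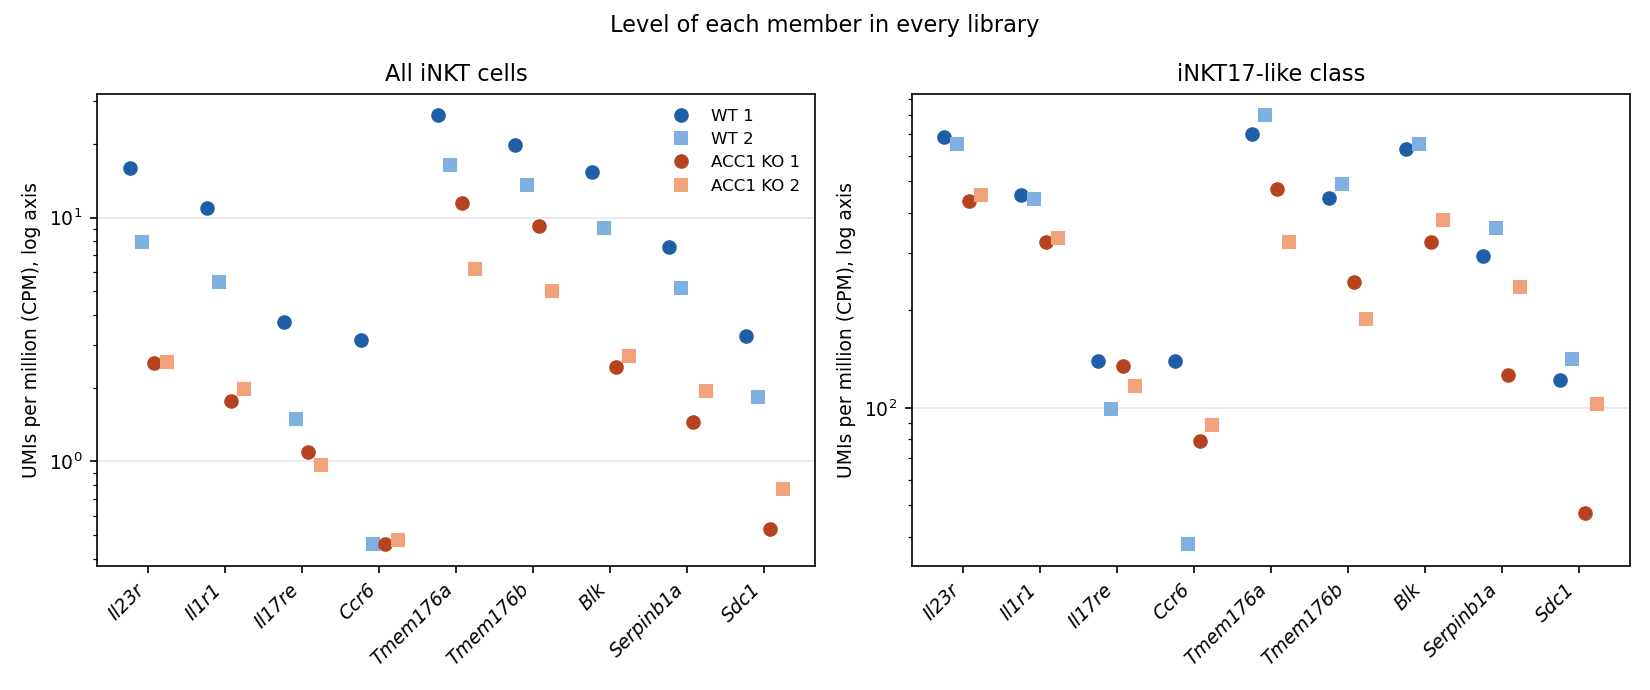
CPM of the 9 genes in every library on log axes, over all iNKT cells (left) and in the iNKT17-like class (right). On the left both ACC1 KO libraries lie below both WT libraries for all genes but Ccr6, and on the right for all but Il17re and Ccr6, with smaller gaps.

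The iNKT17-like class itself was smaller in the ACC1 KO libraries. It held 80 cells in each WT library and 20 and 33 in the ACC1 KO libraries, which is 1.73, 0.888, 0.357 and 0.423% of iNKT cells. The mean was 1.31 ± 0.60% in WT and 0.390 ± 0.047% in ACC1 KO (SD, n = 2 libraries each), a ratio of 3.36, with 4.86 within number 1 and 2.10 within number 2. Both ACC1 KO libraries lay below both WT libraries. The exact 95% binomial intervals were 1.38 to 2.15, 0.704 to 1.10, 0.218 to 0.551 and 0.292 to 0.594%. They cover the counting of cells and not the spread between libraries: the intervals of WT 1 and WT 2 did not overlap. The exact two-sided permutation test gave p = 0.333, the smallest that 2 against 2 libraries allow. Cells picked instead by UMIs of at least 3 of the 9 genes, a gate that uses the genes themselves, gave 84, 87, 24 and 32 cells.

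**Figure D5:**
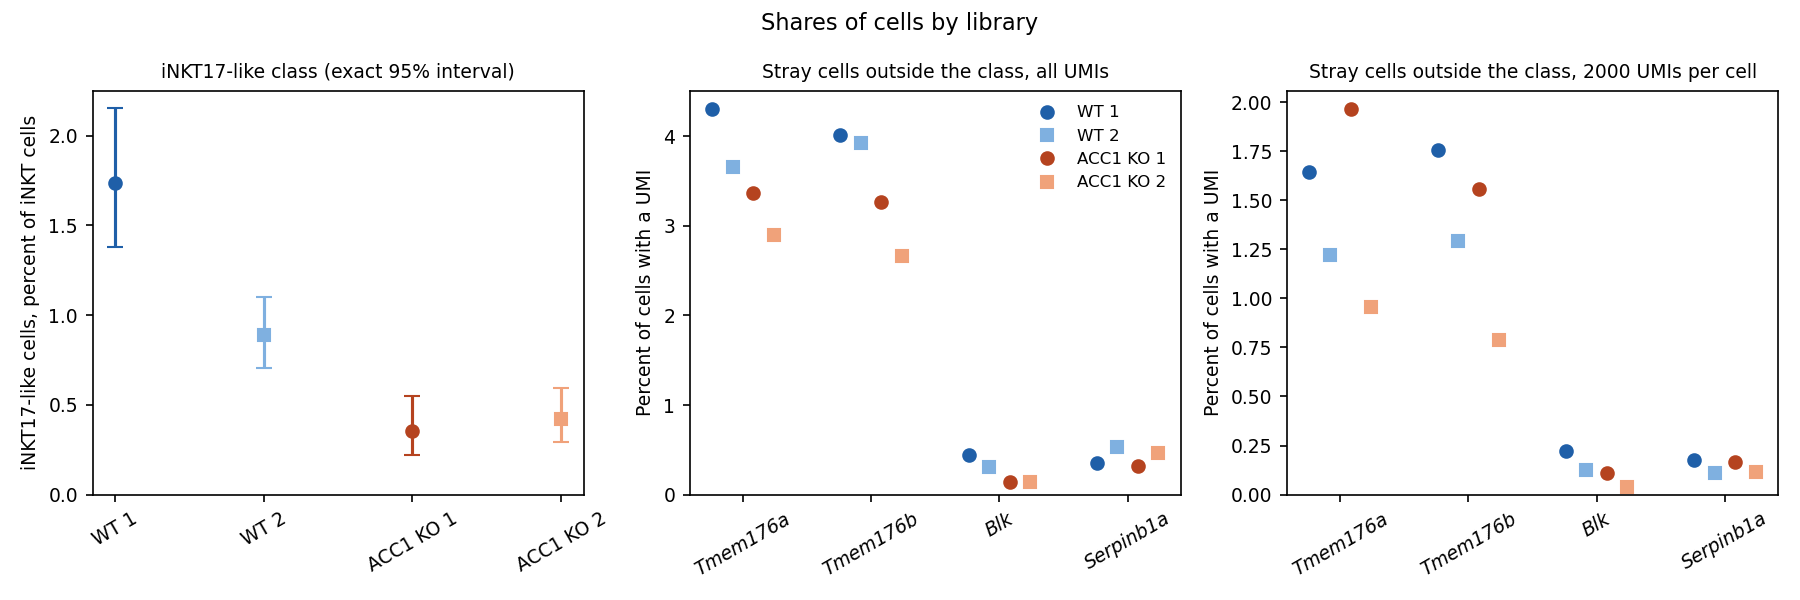
Shares of cells per library: the iNKT17-like class as percent of iNKT cells with exact 95% binomial intervals (left), and cells outside the class with a UMI of Tmem176a, Tmem176b, Blk or Serpinb1a, with all UMIs (middle) and at 2000 UMIs per cell (right). The class is larger in both WT libraries, whereas the thinned Tmem176a share is highest in ACC1 KO 1 and lowest in ACC1 KO 2.

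With the 4 libraries given the same mix of classes, the differences were smaller. The log2 differences then ran from -0.99 (Sdc1) to -0.15 (Il17re) for 8 genes, and Ccr6 turned to 0.18. For Il23r the same-mix levels were 7.92, 7.58, 5.22 and 5.19 CPM, a difference of -0.57, against -2.14 with the observed mix. For Blk the same-mix difference was -0.92 against -2.20.

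Within the iNKT17-like class 7 of the 9 genes were lower in both ACC1 KO libraries than in both WT libraries, against 15.7% of the 6197 genes tested, and 5 had an unadjusted p under 0.05 toward lower values, against 3.61%. None passed the adjusted edgeR test, in which 8 genes in all were called lower (0.129%) and 3 higher (0.0484%). With the replicate number as a block, edgeR called 3 of the 9 and 39 of 6197 genes. The median log2 fold change of the members was -0.68, against -0.02 over all genes tested, and stood at -0.90 within number 1 and -0.60 within number 2. The class held 20 and 33 ACC1 KO cells, and the test recovered 11% of simulated 2-fold changes over genes of all levels. Recovery at the members' own levels was not simulated. The set of iNKT1 markers summed to 346, 672, 1107 and 422 CPM and the set of B cell markers to 43.2, 40.8, 111 and 62.7 CPM in the class, and their part in these values was not tested.

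Tmem176b came closest, at -1.20 ± 0.28 (SE; edgeR adjusted p = 0.077), with -0.98 within number 1 and -1.45 within number 2. Without ACC1 KO 1 it passed (edgeR adjusted p = 0.046). Tmem176a gave -0.996 ± 0.290 (edgeR adjusted p = 0.263) and Blk -0.89 ± 0.28 (edgeR adjusted p = 0.323). Serpinb1a gave -0.80 ± 0.30 and Il23r -0.63 ± 0.28, both with an unadjusted p under the threshold and an edgeR adjusted p of 0.513 and 0.632. Il1r1 (-0.48 ± 0.27) and Sdc1 (-0.68 ± 0.33) were lower in both ACC1 KO libraries without passing even unadjusted. Il17re, at 0.02 ± 0.30, and Ccr6, at -0.02 ± 0.60, had overlapping groups.

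Outside the iNKT17-like class no member was called, among 8 that could be tested (1 of 14651 genes was called, 0.00683%, higher). With the replicate number as a block, edgeR called 2 of the 8 and 1138 of 14651 genes. Of the 8, 4 did not overlap between the genotypes (Il1r1, Tmem176b, Blk and Serpinb1a), against 19% of genes tested, and Il1r1 alone had an unadjusted p under 0.05 (lower, against 1.43%). The median log2 fold change was -0.55, with -0.18 within number 1 and -0.95 within number 2. Tmem176a stood at 10.7, 7.85, 9.43 and 4.42 CPM (-0.39 ± 0.38) and Tmem176b at 9.91, 8.34, 8.22 and 3.99 CPM (-0.55 ± 0.35, edgeR adjusted p = 1). ACC1 KO 2 was the low library for both, and without it the Tmem176a difference was 0.06. Il23r rested on 8, 56, 17 and 7 UMIs and Blk on 28, 122, 28 and 43. Ccr6, with 6 in all, could not be tested. Il1r1 rested on 15, 40, 9 and 12 UMIs, of which 9, 33, 7 and 5 lay in the 22 cells with 3 or more members. With those cells left out 5 members could be tested, Il1r1 not among them, and none was called. The fit recovered 89% of simulated 4-fold and 22% of 2-fold changes over genes of all levels.

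The share of these cells with a UMI of any of the 9 genes, thinned to 2000 UMIs, was 3.60, 2.58, 3.61 and 1.90%, with overlap between the genotypes (exact two-sided permutation p = 1). Unthinned it was 7.77, 7.15, 6.22 and 5.67%, without overlap (exact p = 0.333, the smallest possible). The order of libraries thus changed with thinning, and followed the number in the thinned values. Thinning was a single random draw and left out 29, 24, 128 and 21 of these cells. The reason for the change was not tested. Cells with both Tmem176a and Tmem176b made up 1.5, 1.43, 0.896 and 0.838% of cells outside the class, lower in both ACC1 KO libraries, at full depth.

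In iNKT1-like cells 3 members could be tested, and none was called (0.00733% of genes were, all higher) or had an unadjusted p under 0.05 (1.47% did, toward lower). Tmem176a gave -0.37 ± 0.39, Tmem176b -0.51 ± 0.35 and Serpinb1a -0.33 ± 0.38 (edgeR adjusted p = 1 for each), and Serpinb1a alone did not overlap, against 23.6% of genes tested. With the replicate number as a block, edgeR called 2 of the 3, Tmem176a and Tmem176b, and 1339 of 13639 genes. WT iNKT1-like cells came mostly from other clusters (1, 3 and 6) than ACC1 KO ones (2, 4 and 9). In iNKT2-like cells, again with 3 tested, none called and none with an unadjusted p under 0.05 (0.814% of genes, toward lower), Blk stood at 11.1, 9.67, 1.30 and 7.36 CPM (-1.05 ± 0.60, edgeR adjusted p = 1), without overlap, against 13.4% of genes tested. The low ACC1 KO 1 value rested on 3 UMIs. Whether the genotype difference differed between the iNKT17-like class and other iNKT cells was tested directly, and no member was called among 41 of 13059 genes (0.314%). Tmem176a came closest, at -0.58 ± 0.20 (edgeR adjusted p = 0.289). Without ACC1 KO 2 it was called, at -0.92 (edgeR adjusted p = 0.032), and without ACC1 KO 1 Il23r was, at 2.04 (edgeR adjusted p = 0.010).

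Other genes of the pathway were read as lists over all iNKT cells. None of their members was called by edgeR. Of 14 transcription factors tested, 3 had an unadjusted p under 0.05 toward lower values and none toward higher, against 1.79 and 3.02% of all genes tested. Among the 3 were Sox13, a factor of gamma delta T cells making IL-17 in mice (3.27, 3.24, 0.635 and 0.815 CPM) and Ahr, the aryl hydrocarbon receptor (36.0, 18.8, 14.3 and 7.61 CPM). The groups did not overlap for either, and the median of the list was -0.06. Maf, next by p, gave -0.42 ± 0.17.

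Of 10 surface genes tested, 4 had such a p, all lower, against 1.79% of all genes tested: 5830411N06Rik, Aqp3, a glycerol channel, Cd163l1 and Pxdc1, with log2 fold changes of -0.98, -0.64, -0.73 and -1.46 and a list median of -0.31. These 4 are also among the markers that named the iNKT17-like class. Of 16 partners of the receptors tested (their co-receptors, kinases and adaptors), none had an unadjusted p under 0.05. By p the first 4 were Il6ra (0.996), Il12rb1, the other subunit of the IL-23 receptor (-0.36), Traf3ip2 (-0.22) and Stat3 (-0.17). None of the 3 cytokines tested of 5, the 1 ligand tested of 7 (Il17c) or the 4 paralogs tested of 7 had one either. Il17a stood at 0.0850, 2.56, 0.0353 and 0.600 CPM, so that WT 2 was far above the other libraries.

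The genes most like the programme across iNKT cells were ranked by their mean within-library correlation with the number of members in a cell, among 11886 genes over the 4 libraries. Among the first 10 were Pxdc1 (0.690), Igf1r (0.513), Pde5a (0.463) and Emb (0.453), with Coro2b, Adam12, March3, Ckb and Avpi1 at 0.426 down to 0.294. Pxdc1 stood at 379 ± 70.0 CPM in the class and 0.987 ± 0.554 CPM outside (SD, n = 4 libraries). For each gene named here the correlation was lower in ACC1 KO 1, with its 20 iNKT17-like cells, than in either WT library.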

How the data were processed

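The deposited values were whole-number UMI counts per gene and cell in 4 filtered matrices, which the authors made with Cell Ranger 7.0.0 on mm10, per the submitters' processing notes, from 10x 3′ v3.1 libraries, per the labels' protocols. Whether counting used strand or introns is not given in the sources used here. Barcodes with under 500 genes, under 1000 UMIs or over 10% mitochondrial UMIs were removed, and predicted doublets were scored against simulated ones and removed at 0.8% per 1000 barcodes (238 to 783 a library). Values were scaled within each replicate number, and the cells were clustered (2000 variable genes without the 9 members, 30 components, Leiden at resolution 1) with Python 3.11.15, scikit-learn 1.9.0 and leidenalg 0.10.2. Clusters were named from 16 marker sets, with limits on the scores set after seeing the data.

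Counts were summed per library and tested with edgeR 4.0.16 in R 4.3.3 (TMM, filterByExpr, quasi-likelihood F test, no covariate), adjusted over all genes tested, with a threshold of 0.05. Fits used all 4 libraries, and the class by genotype test kept the library as a covariate. On simulated counts with 200 changed genes the fit over all iNKT cells recovered 96% of 4-fold and 42% of 2-fold changes, and the fit in the iNKT17-like class 73 and 11%. Shares were compared by exact permutation tests, and cells were thinned to 2000 UMIs, which left out 202 of 26807 cells outside the class. The alternatives were DESeq2 1.42.0, its size factors, other filters on low counts, the replicate number, leaving out each library, kept doublets, every barcode, thinned cells and other clusterings.

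The members and the gene lists were chosen with earlier results of these data known. Named genes were the 9 members, up to 4 genes of each list with the smallest unadjusted p, and the 10 genes most correlated with the number of members. Gene positions are from GENCODE on mm10. Some genes of the lists and marker sets are not reported here.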

Additional observations from a re-analysis of the deposited data

Results flagged for a closer look

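For 3 genes the 2 replicate numbers went opposite ways in a tested comparison of ACC1 KO with WT by at least 0.5 on the log2 scale in each number, and none of these differences was tested. Il23r outside the iNKT17-like class gave a log2 fold change of 0.80 in number 1 and -2.63 in number 2, on 8 and 17 UMIs against 56 and 7. Tmem176a in iNKT2-like cells gave 1.46 and -1.55, on 3 to 17 UMIs a library. Ccr6 in the iNKT17-like class gave -0.90 and 1.05, with WT 1 high and WT 2 low.

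Some of the 9 genes were also found in cells removed as other cell types, which no comparison used, at levels above the limit of 3 counts and with a 95% interval above that of iNKT cells outside the iNKT17-like class. In B cell-like cells Blk stood at 293 CPM, Ccr6 at 155, Serpinb1a at 97.4, Tmem176b at 11.4 and Il1r1 at 3.20 CPM. In plasma cell-like cells Tmem176a stood at 299 CPM, Tmem176b at 276, Sdc1 at 108 and Blk at 22.7 CPM. In myeloid-like cells Tmem176a stood at 465 CPM, Tmem176b at 404, Il1r1 at 65.6 and Serpinb1a at 9.94 CPM. In DP thymocyte-like cells Il17re stood at 5.67 CPM. Il23r had no UMI in any of these cells.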

How the results depend on the processing

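Over all iNKT cells the number of genes called went from 1 to 97 with DESeq2 (4 members), 354 without a filter (9 members), 0 at a mean of at least 10 CPM (2 members tested), 0 with doublets kept, 0 with every barcode and 3 in thinned cells. Outside the iNKT17-like class it went from 1 to 83 with DESeq2, 165 without a filter, 0 at 10 CPM and 0 with doublets kept. The remaining classes' alternatives were chosen after seeing the data. DESeq2 called 87 genes in iNKT1-like, 3 in iNKT2-like and 2 in iNKT17-like cells, and no filter 223, 20 and 36 (1 member, Tmem176b). The cause was not tested.

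Replicate numbers share only a number here: the labels give no shared animal or day, and the number goes with sex and depth. Deviations of same-numbered libraries correlated at 0.865 over all iNKT cells and 0.142 in the iNKT17-like class. With the replicate block 1191 genes (8 members) were called over all iNKT cells, 1138 (2 members) outside the class, 1339 (2 members) in iNKT1-like, 118 in iNKT2-like and 39 (3 members) in iNKT17-like cells, where Ccr6 turned to 0.25.

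Directions turned for the share of stray Tmem176a cells (0.026 points) without thinning (-0.847) and without cells of 3 or more members (-0.00853), Ccr6 at the same class mix (0.18), Tmem176a in iNKT2-like cells by DESeq2 (0.048) and Il17re in iNKT17-like cells without a filter (-0.028).

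Leaving out each library gave 14 to 45 calls (0 to 4 members) over all iNKT cells, 3 to 55 outside the class, 2 to 43 in iNKT1-like, 4 to 19 in iNKT2-like and 13 to 58 (0 to 1 member) in iNKT17-like cells. The class by genotype test gave 14 to 94 (0 to 1 member). The difference in the thinned share of any member ran from -1.19 to 0.524, of Tmem176a from -0.477 to 0.529, of Tmem176b from -0.734 to 0.0365 and of Serpinb1a from -0.0370 to 0.0284. Ccr6 ran from -2.64 to 0.035 over all iNKT cells and from -0.69 to 1.08 in the class, and Il17re from -0.48 to 0.023 outside and from -0.17 to 0.23 in it. Tmem176a ran from -0.99 to 0.065 outside, from -0.93 to 0.072 in iNKT1-like and from -1.5 to 0.82 in iNKT2-like cells. In the class by genotype test Il23r ran from -0.53 to 2.04, Ccr6 from -3.39 to 3.39, Blk from -0.41 to 0.47, Serpinb1a from -1.24 to 0.13 and Sdc1 from -1.42 to 0.33.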
